A study of Homo sapiens with 4 samples.

Results

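The S100 proteins are small calcium-binding proteins of vertebrates that mostly act as dimers and change the activity of the proteins they bind when calcium rises in the cell. Some are also released and act outside the cell as danger signals through receptors such as AGER (RAGE) and TLR4. In breast epithelium and breast cancer they are known as markers of basal, inflamed or invasive cells. The 10 members described here are S100A2, S100A4, S100A6, S100A7, S100A8, S100A9, S100A10, S100A11, S100A14 and S100A16. They were taken by symbol, with every probe that carries the symbol, which gave 10 of 34755 genes and 11 of 58201 probes on the array. S100A11 had 2 probes and each of the others had 1, and every probe was spotted 1 time per array.

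RNA was measured in SUM149, an established line of inflammatory breast cancer cells, on 4 two-colour Agilent arrays. These hold untreated cells (0 h) and cells kept for 3, 6 or 12 h with 2.5 uM ACY1215 (Ricolinostat), an inhibitor of the deacetylase HDAC6, with 1 array per time point and all 4 on 1 slide. No array of vehicle-treated cells was analysed here, so time in culture and ACY1215 cannot be told apart. The sample was labelled with Cy5 and a common reference, which the labels describe as pooled RNA of the treated and untreated SUM149 cells, with Cy3.

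With 1 array per time point there is no replicate and no test, and a difference below is a difference between 2 arrays. A change is the difference in log2(Cy5/Cy3) between a treated array and the untreated array, and all 3 changes therefore share the untreated array. The technical error of a change was taken from probes that were spotted 9 or more times on the array. The SD of the change between such spots, pooled over probes, was 0.17 at 3 h (159 probes), 0.12 at 6 h (201 probes) and 0.12 at 12 h (211 probes). This technical SD does not cover differences between cultures or labelling reactions, and spots in damaged areas were not left out of it. For the median probe the SD was 0.11, 0.11 and 0.10, and at 3 h its 95th percentile over probes was 0.33. Whether a change at 3 h lay within the technical SD can therefore depend on the pooling. Damaged areas held 3.25% of the spots of the untreated array, 4.58% at 3 h and 0.248% at 6 h, and no probe of a member lay in them. As for the cell type, 11 of 12 markers of basal-like breast epithelium were well above background in untreated cells, among them the keratins KRT5, KRT6A, KRT14 and KRT17, whereas TP63 was not. The untreated spots of KRT6A and KRT14 were flagged as outliers, so no ratio in untreated cells was kept for them. The oestrogen receptor ESR1 and ERBB2 (HER2) had signals of 8.65 and 10.7 times background and the progesterone receptor PGR was not detected, and 5 of 6 fibroblast markers were detected, at no more than 15.2 times background. Of all genes, 64.1% were well above background in Cy5 on this array, so detection alone does not separate these lists. The median signal was 288 times background for the basal-like markers and 6.26 times for the fibroblast markers.

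All 10 genes lie on chromosome 1. In the RefSeq table of build GRCh38.p14 their order is S100A10, S100A11, S100A9, S100A8, S100A7, S100A6, S100A4, S100A2, S100A16 and S100A14, and 47 other protein-coding genes lie between S100A11 and S100A9. Each member's probe was annotated to a RefSeq transcript of the gene of the same symbol in that table. The 250 bases before the transcription start are shown for 4 members: S100A14 and S100A10, which had the largest changes, and S100A8 and S100A9, whose proteins form a heterodimer. The sequences are from RefSeq (GRCh38.p14), run 5′ to 3′ on the strand of the gene, and carry in capitals every match to a TATA box (TATAAA), an AP-1 site (TGANTCA), a GC box (GGGCGG) or a CCAAT box (CCAAT) on either strand. S100A14 is on the minus strand (chr1:153616326-153616575), as are S100A10 (chr1:151993860-151994109) and S100A8 (chr1:153391189-153391438), and S100A9 is on the plus strand (chr1:153357604-153357853). S100A8 has 3 starts in the table, of which the one farthest upstream was taken.
S100A14: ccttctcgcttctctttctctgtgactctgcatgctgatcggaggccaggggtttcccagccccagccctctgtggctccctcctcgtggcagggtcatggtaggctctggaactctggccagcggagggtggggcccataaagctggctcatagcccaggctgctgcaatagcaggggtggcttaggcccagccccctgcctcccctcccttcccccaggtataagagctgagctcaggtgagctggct
S100A10: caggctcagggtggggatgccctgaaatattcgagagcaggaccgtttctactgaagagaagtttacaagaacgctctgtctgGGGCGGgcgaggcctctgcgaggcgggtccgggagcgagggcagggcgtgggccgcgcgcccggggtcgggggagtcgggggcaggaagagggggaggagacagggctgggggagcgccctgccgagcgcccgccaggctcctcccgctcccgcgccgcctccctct
S100A8: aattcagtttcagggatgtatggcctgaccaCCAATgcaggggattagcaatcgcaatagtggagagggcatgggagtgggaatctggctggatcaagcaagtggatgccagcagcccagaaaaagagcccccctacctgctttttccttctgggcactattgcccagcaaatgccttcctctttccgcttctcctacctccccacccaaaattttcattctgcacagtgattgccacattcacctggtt
S100A9: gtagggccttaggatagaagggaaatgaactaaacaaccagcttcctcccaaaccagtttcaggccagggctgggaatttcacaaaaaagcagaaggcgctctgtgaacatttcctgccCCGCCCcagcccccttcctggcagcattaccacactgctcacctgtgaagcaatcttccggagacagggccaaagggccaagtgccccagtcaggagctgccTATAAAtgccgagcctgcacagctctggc

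These 4 upstream regions differed in the motifs they hold. S100A9 has the letters TATAAA, which 10.7% of all 35116 upstream regions in the table contain, and a GC box on its other strand. S100A10 has a GC box, found in 42.6% of all regions, and S100A8 has a CCAAT box, found in 32.0%. None of the 4 motifs was found before the start of S100A14. Over the 10 members, TATAAA was found before S100A4, S100A7 and S100A9, the GC box before S100A6, S100A9, S100A10 and S100A11, the CCAAT box before S100A8 alone, and the AP-1 letters before S100A2 alone, against 6.57% of all regions. A match is a run of letters and not a measured binding site.

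All 10 members were expressed in untreated SUM149 cells, where 64.1% of all 34755 genes were well above background in Cy5. On all 4 arrays both channels of all 11 probes were well above background, with none saturated and none flagged as an outlier, and over the arrays the Cy5 signal of the representing probes lay between 12.7 and 1980 times the local background. No member reached a 2-fold change in either direction at any time. Across all genes measured, 1.69% were at least 2-fold higher and 0.366% lower at 3 h, 2.81% higher and 0.939% lower at 6 h, and 2.34% higher and 1.12% lower at 12 h. At a threshold of 1.5-fold, S100A10 was higher at 3 h and at 6 h, S100A10 and S100A14 were higher at 12 h, and no member was lower. Of all genes, 6.87% were at least 1.5-fold higher and 1.96% lower at 3 h, 9.40% higher and 4.42% lower at 6 h, and 8.09% higher and 5.13% lower at 12 h. These 1.5-fold calls were not stable. S100A10 lost the call at 3 h with the processed signals of Feature Extraction and the Cy5 channel alone, and at 6 and 12 h with these, median centring and the authors' table. Here and below, the Cy5 channel alone and the Cy3 differences in log2 units are values after normalization, and so depend on it. S100A14 lost it at 12 h with median centring. Some of these settings called other members, namely S100A9 higher (Cy5 alone, 12 h), S100A11 lower (median centring, 6 and 12 h) and S100A7 lower (Feature Extraction, 12 h).

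The median change of the 10 members was -0.11 at 3 h, 0.036 at 6 h and 0.28 at 12 h, and the median of all genes measured was 0.0075, 0.016 and 0.014. The changes ranged from -0.24 to 0.66 at 3 h, from -0.43 to 0.61 at 6 h and from -0.28 to 0.83 at 12 h. The number of members above 0 was 3 at 3 h, 6 at 6 h and 7 at 12 h, out of 10. Of all genes measured, 51.4%, 52.8% and 52.5% were above 0 at these times. At 12 h, 6 members were above untreated cells by more than the technical SD, 3 were below by more than it and 1 was within it. Changes of this size were common at 12 h. Of all genes, 32.3% were at least as high as S100A4 (0.14), the lowest of the 6. A further 23.5% were at least as low as S100A16 (-0.17), the nearest to 0 of the 3. The 12 h median depends on the normalization. When each array was only centred on its median, in place of loess, the median of all genes was -0.16 at 12 h and that of the members -0.095, which is 0.064 above all genes.

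**Figure D1:**
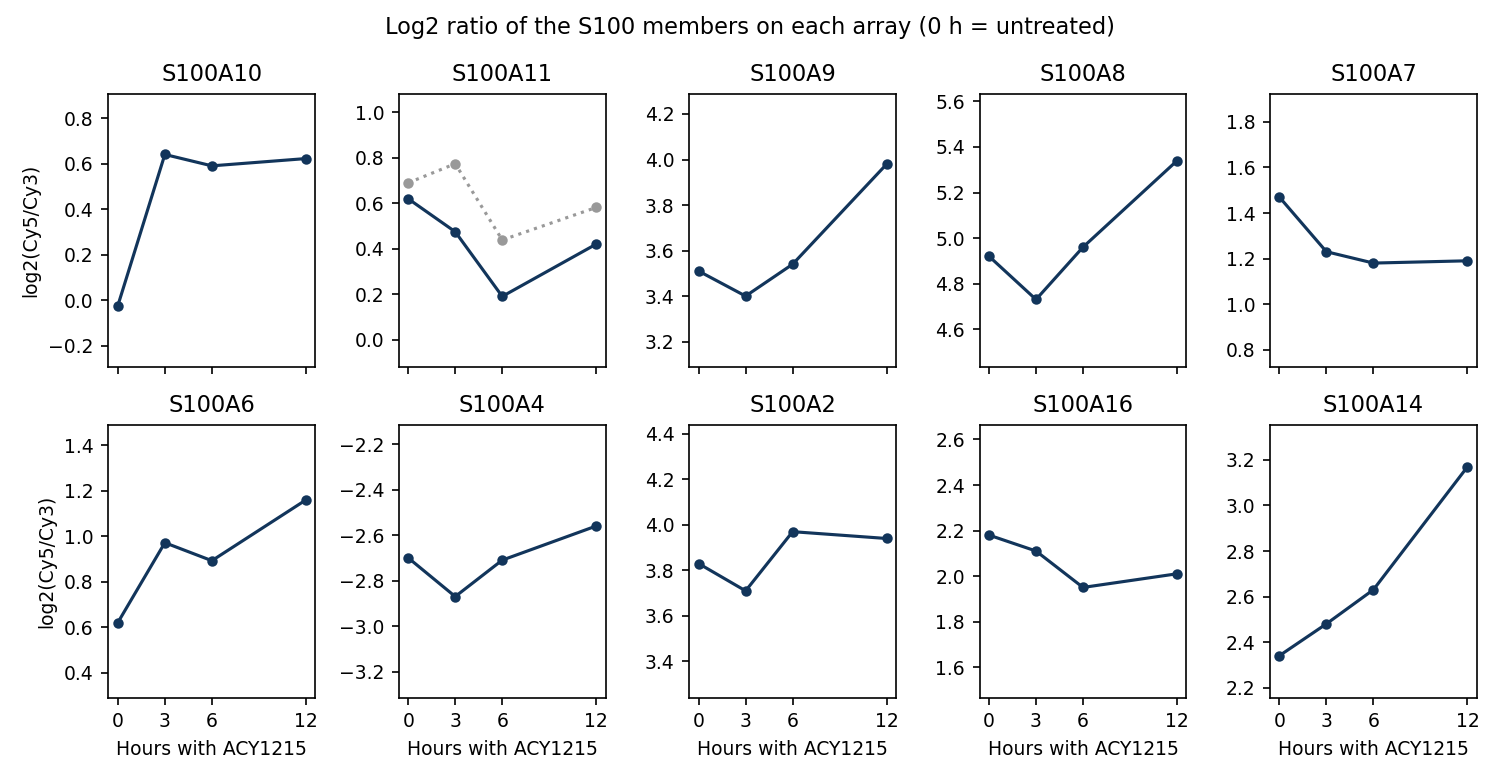
Log2 ratio of Cy5 over Cy3 of each S100 member (y axis, every panel spans the same range of log2 units) on the 4 arrays (x axis, hours with ACY1215, 0 being untreated), with 1 point per array. Dark lines are the probe that represents the gene and the dotted grey line is the other probe of S100A11. S100A14 was higher on each later array, S100A10 was higher on all 3 treated arrays, and S100A8 and S100A9 were highest at 12 h.

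S100A14, which is abundant in epithelial tissues, had the largest change of the family at 12 h. Its log2 ratio was 2.34 in untreated cells, 2.48 at 3 h, 2.63 at 6 h and 3.17 at 12 h. Each array was thus above the one before it, and the largest step, 0.54, came between 6 and 12 h. The change from untreated cells was 0.14 at 3 h, within the technical SD, 0.29 at 6 h and 0.83 at 12 h, or 1.77-fold. At 12 h 3.93% of all genes measured had a change at least as high. The reference signal of this probe was nearly the same on all arrays, with Cy3 differences of 0.0016, 0.050 and -0.019, and the Cy5 channel alone gave 0.81 at 12 h. The raw Cy5 signal was 7765.5 units in untreated cells and 10584 units at 12 h. Under the other ways of processing that moved the value of S100A14, the Cy5 channel alone among them, the 12 h change stayed between 0.47 and 0.89.

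S100A16 is the nearest member to S100A14 on the chromosome, with no other protein-coding gene between them, and its values lay on the other side of 0. Its log2 ratio was 2.18 in untreated cells and 2.11, 1.95 and 2.01 at 3, 6 and 12 h, so that each treated array was below the untreated one. The changes were -0.074, -0.23 and -0.17, of which the first is within the technical SD. Under median centring they were 0.010, -0.48 and -0.58, which relative to the median of all genes is -0.066, -0.40 and -0.42. The Cy3 signal of the probe was also lower, by 0.26 log2 units at 12 h.

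The genes whose 3 changes were closest to those of S100A14, among 19891 genes detected in both channels throughout, were OLR1, SLC25A23 and POTEKP. Their Euclidean distances over the 3 changes were 0.045, 0.055 and 0.058 log2 units. OLR1, the lectin-like receptor for oxidised LDL, had changes of 0.14, 0.27 and 0.79 at 3, 6 and 12 h. SLC25A23, a calcium-regulated carrier of mitochondria, had 0.19, 0.28 and 0.81. Within 0.3 log2 units of S100A14 lay 242 genes.

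S100A10 (p11) is the member that does not depend on calcium. It binds annexin A2 at the cell surface and is known for binding plasminogen and tissue plasminogen activator. Its log2 ratio was -0.023 in untreated cells and 0.64, 0.59 and 0.62 at 3, 6 and 12 h, so that the treated arrays lay within 0.05 of each other and all above the untreated array. The changes of 0.66, 0.61 and 0.65 correspond to 1.59-, 1.53- and 1.57-fold. At 3, 6 and 12 h, 5.31%, 8.71% and 6.8% of all genes measured were at least as high. Part of the change lay in the reference channel. After normalization the Cy3 signal was lower than on the untreated array by 0.17, 0.29 and 0.29 log2 units, and the Cy5 channel alone gave changes of 0.50, 0.33 and 0.36. The raw Cy5 signal was 18345 units in untreated cells and 27102.5, 18868 and 17312 units at 3, 6 and 12 h. The raw signal was thus not higher at 12 h. Median centring gave 0.73, 0.35 and 0.18 at 3, 6 and 12 h, so the near-equal values at the 3 times were not seen with that setting, where S100A10 was 0.66, 0.43 and 0.34 above the median of all genes. Because the 3 changes share 1 untreated array, their likeness is also that of 1 denominator.

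S100A11, a partner of annexin A1 and the neighbour of S100A10 on the chromosome, was measured by 2 probes annotated to the same transcript. On the probe that represents the gene, brighter in Cy3, the log2 ratio was 0.62 in untreated cells and 0.47, 0.19 and 0.42 at 3, 6 and 12 h. On the other probe it was 0.69 in untreated cells and 0.77, 0.44 and 0.58. Both probes had their lowest ratio at 6 h. The changes there were -0.43 and -0.25, both beyond the technical SD of 0.12. At 3 h the probes had opposite signs, -0.14 and 0.084, each within the technical SD, and at 12 h they gave -0.20 and -0.11. The probes of this gene thus differed by as much as 0.23 log2 units in a change, although their Cy3 signals on the untreated array were 3705 and 3588 units.

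S100A6 (calcyclin), which binds CACYBP and several annexins, was above untreated cells on each treated array. Its log2 ratio was 0.62 in untreated cells and 0.97, 0.89 and 1.16 at 3, 6 and 12 h. The changes were 0.35, 0.27 and 0.54, and the Cy3 signal moved by 0.13 log2 units or less. The raw Cy5 signal was 38048 units in untreated cells and 49553, 35717 and 36963.5 units at 3, 6 and 12 h. The changes depend on the correction for intensity. Median centring gave -0.013 at 6 h and 0.043 at 12 h, which are 0.071 and 0.20 above the median of all genes under that setting.

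**Figure D2:**
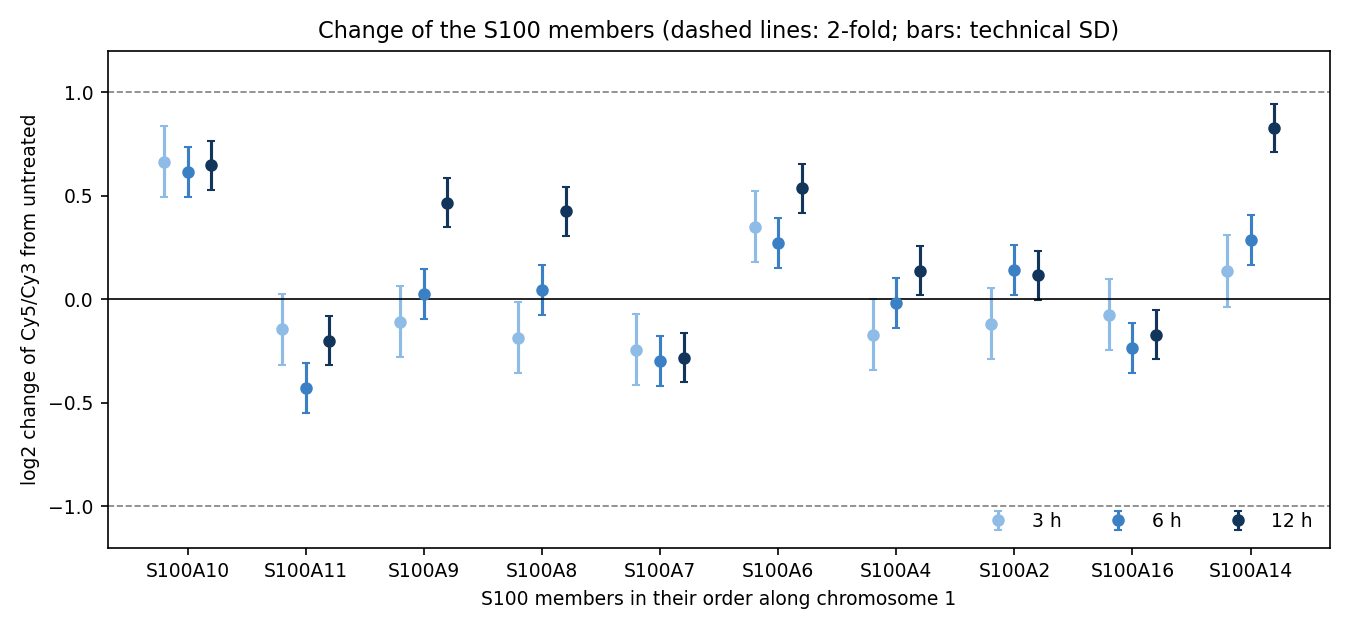
Log2 change of Cy5/Cy3 from untreated cells (y axis) of the S100 members at 3, 6 and 12 h (light to dark points), in their order along chromosome 1 (x axis, not to scale). Bars are the technical SD between repeated spots, 0.17, 0.12 and 0.12 log2 units, and dashed lines mark 2-fold; all points lie between them, with S100A14 at 12 h the highest at 0.83.

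S100A8 and S100A9 form calprotectin, a heterodimer that is abundant in neutrophils and monocytes and is also made by stressed or inflamed epithelium. The log2 ratio of S100A8 was 4.92 in untreated cells and 4.73, 4.96 and 5.34 at 3, 6 and 12 h. That of S100A9 was 3.51 in untreated cells and 3.40, 3.54 and 3.98. Both genes had their lowest value at 3 h and their highest at 12 h. The changes at 3 h were -0.19 and -0.11, and those at 6 h were 0.045 and 0.028, within the technical SD. At 12 h S100A8 was 0.43 above untreated cells (1.34-fold) and S100A9 0.47 (1.38-fold). Between 6 and 12 h, a comparison that does not use the untreated array, the log2 ratio was higher by 0.38 for S100A8 and by 0.44 for S100A9.

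The precision of the 2 genes differed. The S100A8 probe had a Cy3 signal of 407 units on the untreated array and a Cy3 difference of -0.043 at 12 h. The S100A9 probe had a Cy3 signal of only 124 units over a background of 28 units, and its Cy3 signal was 0.34 higher at 12 h. The Cy5 channel alone, after normalization, therefore gave 0.80 for S100A9 at 12 h and 0.38 for S100A8. The raw Cy5 signal of S100A8 was nearly the same on the 2 arrays, 20012.5 units in untreated cells and 20202 units at 12 h. For S100A9 it was 2213 and 3197 units. Across the alternatives the 12 h change of S100A9 ranged from 0.24 to 0.80 and that of S100A8 from 0.059 to 0.45, with median centring lowest for both.

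Markers of myeloid cells were examined because such cells are the main source of calprotectin in the body. Of the 9 markers listed, FCGR3B, LYZ and CD68 were not analysed here, and of the other 6 5 were well above background in untreated cells, 6 at 3 and at 6 h and 5 at 12 h. On these arrays 64.1%, 67%, 63.3% and 63.9% of all genes were well above background in Cy5. The summed Cy5 signal of the 6 markers after background subtraction was 1667 units in untreated cells and 2045, 1575 and 1577.5 units at 3, 6 and 12 h. MPO, the peroxidase of neutrophil granules, had a signal of 1.18 times background in untreated cells. CD14, a co-receptor of TLR4, changed by 0.24, 0.41 and 0.61, while CSF1R, the receptor of macrophage colony-stimulating factor, changed by -0.54, -0.67 and -0.99. The markers thus did not move in 1 direction, and their part in the values of S100A8 and S100A9 was not tested.

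S100A7 (psoriasin), a secreted protein of squamous epithelium that signals through AGER, had raw Cy5 signals of 452 units in untreated cells and 396, 291.5 and 424 units at 3, 6 and 12 h. The log2 ratio was 1.47 in untreated cells and 1.23, 1.18 and 1.19 at 3, 6 and 12 h. All 3 treated arrays were below the untreated one, with changes of -0.24, -0.30 and -0.28. The 12 h value rests on the reference, since the Cy3 signal was 0.40 higher on that array and the Cy5 channel alone gave 0.11. Other alternatives gave lower values than those reported. Over all of them the change ranged from -0.35 to -0.16 at 3 h, from -0.569 to -0.285 at 6 h and from -0.59 to 0.11 at 12 h. S100A7A is a near-identical paralog next to S100A7, and probe sequences were not used here, so cross-hybridisation of the 2 genes cannot be assessed. The S100A7A probe had a Cy5 signal of 31.5 units in untreated cells, 1.47 times background.

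S100A2 is a product of basal epithelial cells, and S100A4 binds the heavy chain of non-muscle myosin (MYH9) and is known for its link to metastasis. The log2 ratio of S100A2 was 3.83 in untreated cells and 3.71, 3.97 and 3.94 at 3, 6 and 12 h, and its changes were -0.12, 0.14 and 0.12. That of S100A4 was -2.70 in untreated cells and -2.87, -2.71 and -2.56, and its changes were -0.17, -0.017 and 0.14. None of these 6 changes was more than 1.17 times the technical SD. The raw Cy5 signal of S100A2 ran from 28375 units at 3 h to 13235.5 units at 12 h, while its Cy3 signal ran from 1247 to 740.5 units on the same arrays. The 2 channels moved together, and the Cy5 channel alone gave 0.25, -0.059 and -0.36 for S100A2, with the sign turned at all 3 times.

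**Figure D3:**
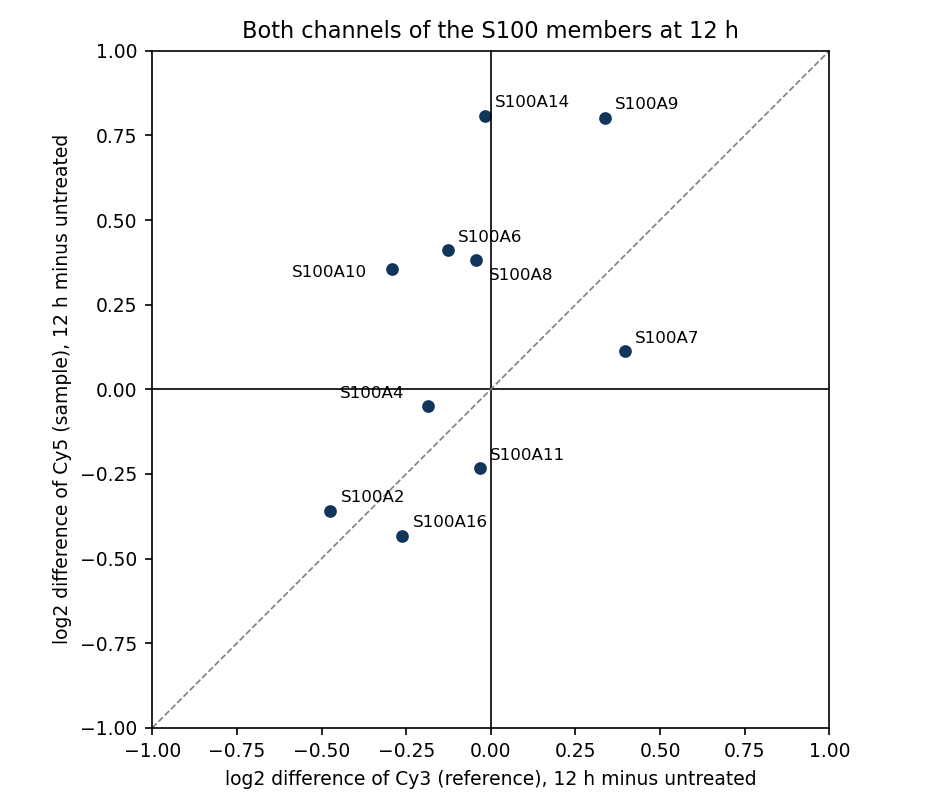
Log2 difference, after normalization, between the 12 h and the untreated array in the Cy3 reference channel (x axis) and the Cy5 sample channel (y axis) for the 10 S100 members, 1 point each. On the dashed diagonal both channels moved alike and the ratio did not change; S100A14 lies at a Cy3 difference of -0.019, whereas S100A2, S100A7, S100A9, S100A10 and S100A16 lie at Cy3 differences of 0.26 or more in size.

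Along the chromosome, some neighbouring members had 12 h changes of opposite sign and others had like ones. S100A10 and S100A11, with no protein-coding gene between them, were at 0.65 and -0.20. S100A7 and S100A6, also adjacent, were at -0.28 and 0.54, and S100A16 and S100A14 at -0.17 and 0.83. S100A9 and S100A8, on either side of S100A12, were at 0.47 and 0.43, and S100A4 and S100A2, on either side of S100A3, at 0.14 and 0.12. S100A12, which codes for a further secreted S100 protein of granulocytes, was at -0.015. The signs of S100A7, S100A4 and S100A2 did not hold under every way of processing. The Cy5 channel alone gave 0.11 for S100A7, -0.050 for S100A4 and -0.36 for S100A2. Median centring gave -0.23 for S100A4 and -0.30 for S100A2, whose reported change was within the technical SD.

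**Figure D4:**
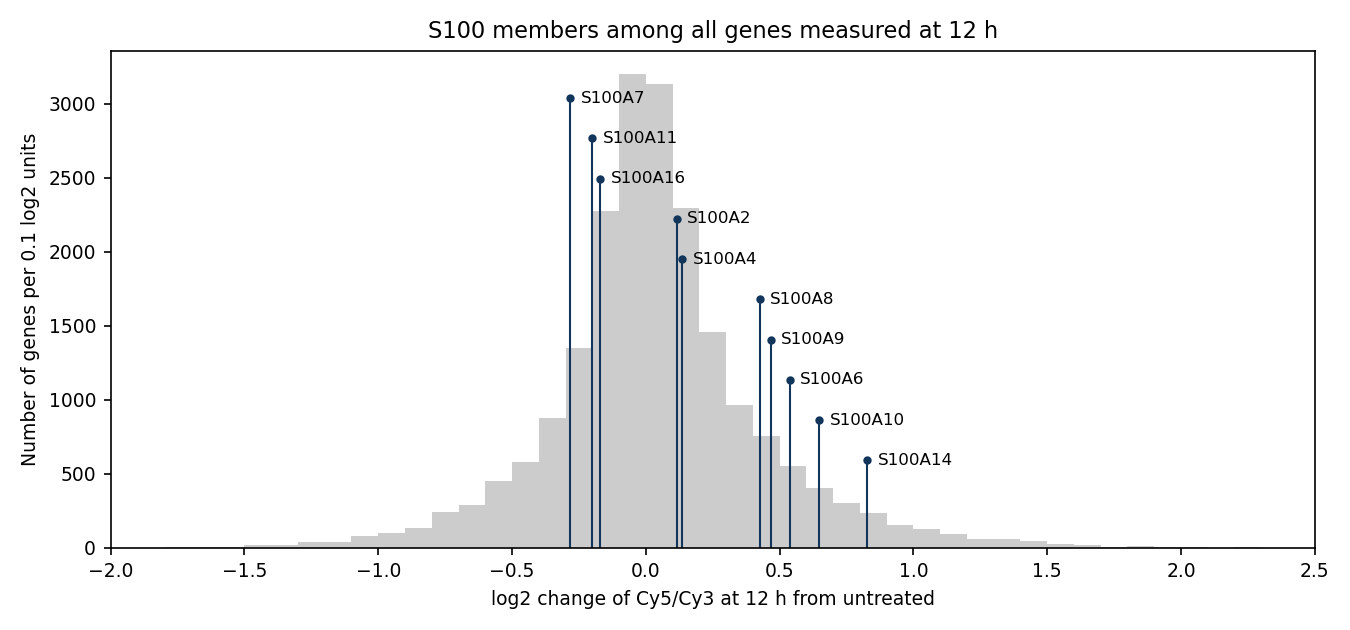
Distribution of the log2 change at 12 h (x axis) over the 20479 genes measured (grey bars, number of genes per bin on the y axis; the axis leaves out the far ends), with the 10 S100 members as dark lines whose heights only separate the labels. The members run from -0.28 for S100A7 to 0.83 for S100A14 and lie within the body and the upper shoulder of the distribution.

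The level of the members against the reference was also recorded. The log2 ratio was above 0 on all 4 arrays for 8 of the 10 members and below 0 on all 4 for S100A4. A mixture of the 4 samples would lie between the lowest and the highest of them, apart from dye effects on single probes, which were not tested because no dye swap was made. Ratios of other genes also lay far from 0 on all 4 arrays, such as 3.89 to 4.14 for KRT5, -3.35 to -3.07 for VIM and -5.04 to -4.82 for COL1A2, and whether the reference holds what its label says is uncertain. S100A8 was 26.6 to 40.6 times brighter in Cy5 than in Cy3, S100A2 13.1 to 15.7 times, S100A9 10.6 to 15.8 times and S100A14 5.07 to 8.98 times. The size of such a ratio depends on the processing. For S100A9 the log2 ratio was 3.40 to 3.98, and 3.76 to 4.42 in the authors' table. For S100A8 it was 4.73 to 5.34, and 4.81 to 5.52 in the authors' table. S100A4 was 2.56 to 2.87 log2 units brighter in the reference than in the samples. Of the 10 members, 4 were at least 4-fold brighter in Cy5 on every array (40.0%), compared with 165 of 19891 genes (0.830%) well above background on all arrays. These ratios describe the reference as much as the cells, and for that reason the changes from untreated cells are given throughout.

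Of 11 other genes of the S100 family on the array, 8 were detected (well above background in Cy5) in untreated cells, as were 64.1% of all genes. S100A7L2, S100G, which codes for calbindin-D9k, and S100Z were not. At each time 7 could be compared, and none passed 2-fold in either direction. Among all genes measured, 1.69%, 2.81% and 2.34% were at least 2-fold higher and 0.366%, 0.939% and 1.12% lower at 3, 6 and 12 h. With such shares, 0 of 7 is not a result about the family. The medians of these 7 genes were 0.0020, -0.029 and -0.015 at 3, 6 and 12 h, next to -0.11, 0.036 and 0.28 for the 10 members. S100P, an S100 protein of epithelial cancers, changed by 0.51, 0.090 and 0.63. Its probe lay in a damaged area, the Cy3 signal at 3 h was 1.71 log2 units lower than on the untreated array, and the 3 h value is therefore uncertain.

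Among 23 known partners and receptors of S100 proteins, 22 were detected in untreated cells, where 64.1% of all genes were, and CD36 was not. Of those measured, 0 of 22 passed 2-fold at 3 h. At 6 h 1 of 21 was higher and 0 lower, and at 12 h 1 of 22 was higher and 0 lower. At these times 1.69%, 2.81% and 2.34% of all genes measured were at least 2-fold higher. The shares at least 2-fold lower were 0.366%, 0.939% and 1.12%. The medians of the partners were 0.034, 0.12 and 0.091. ANXA1, the annexin bound by S100A11, had log2 ratios of 1.48 in untreated cells and 2.01, 2.47 and 2.94 at 3, 6 and 12 h. ANXA1 rose by 1.46 at 12 h (2.76-fold), with changes of 0.53 and 0.99 before, while S100A11 itself was at -0.20 at 12 h. PLAT, tissue plasminogen activator, had log2 ratios of 0.72 in untreated cells and 1.49, 1.75 and 1.51, and passed 2-fold at 6 h with 1.03. Spots of its probe touched a damaged area, and the authors' table gave 0.75 at 6 h, below 2-fold.

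The other partners changed less than 2-fold. ANXA2, the partner of S100A10, was at -0.12, -0.19 and 0.19. MYH9 was at -0.023, 0.13 and 0.67. The receptors AGER and TLR4 were at -0.26 and 0.098 at 12 h.

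The 23 genes of the epidermal differentiation complex on the list all lie between S100A11 and S100A9 and mostly code for proteins of the cornified layer. In untreated cells 12 of the 23 were well above background in Cy5, as were 64.1% of all genes, and the genes for involucrin (IVL) and filaggrin 2 (FLG2) were not. Of the 9 that could be compared at 3 h, the 8 at 6 h and the 9 at 12 h, none passed 2-fold in either direction. Among all genes measured, 1.69%, 2.81% and 2.34% were at least 2-fold higher and 0.366%, 0.939% and 1.12% lower at these times. With such shares, 0 of so few genes is not a result about the complex. The medians of its genes were -0.10, -0.19 and -0.095. The highest value at 12 h was that of SPRR3, a small proline-rich protein, at 0.44, from a signal of 50 units in untreated cells, dim against its background of 25.

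The values of the members differed in how far they held when the arrays were processed in another way. At 12 h, 7 members kept 1 sign under the 7 alternatives that could move a member's value (1 of which, the mean over probes, moves S100A11 alone): S100A6, S100A8, S100A9, S100A10 and S100A14 above 0, and S100A11 and S100A16 below. S100A2, S100A4 and S100A7 had the other sign under at least 1. At 3 h 7 and at 6 h 5 members kept their sign. Under median centring at 12 h, where all genes had a median of -0.16, S100A14 was 0.63, S100A9 0.40 and S100A10 0.34 above that median, and S100A11 was 0.46 below it.

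**Figure D5:**
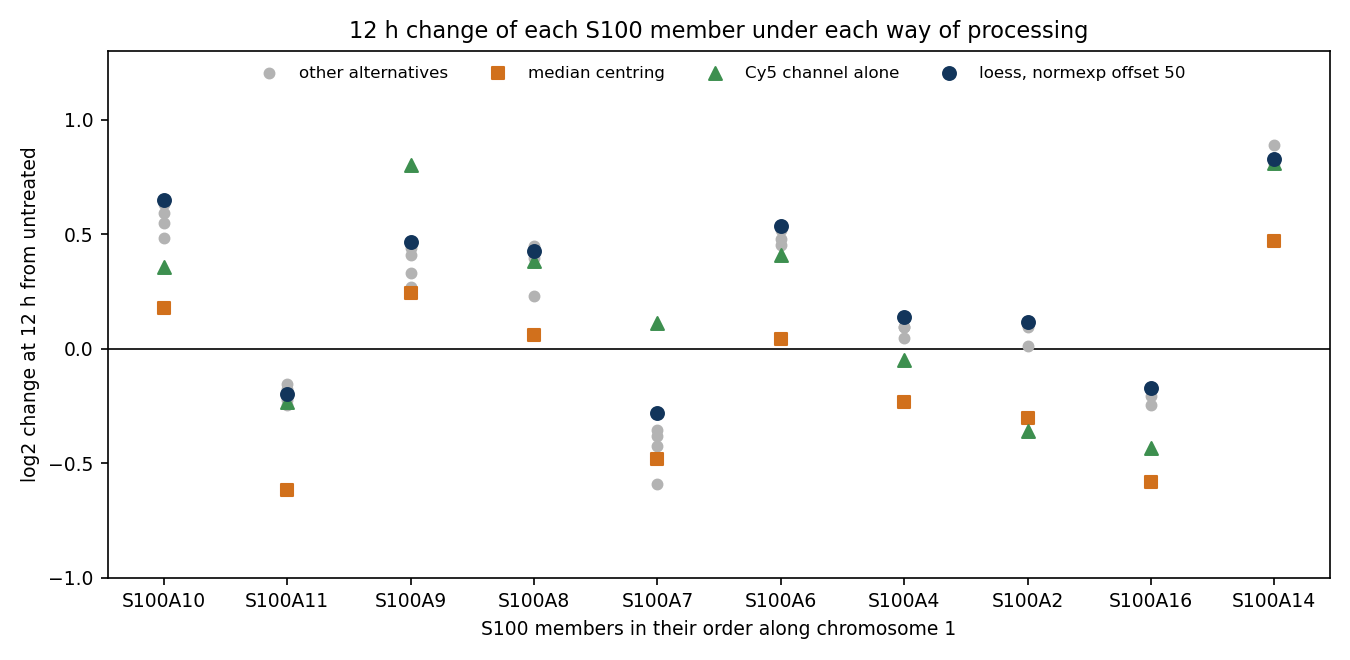
Log2 change at 12 h from untreated cells (y axis) of each S100 member (x axis, in chromosomal order) as reported (dark circles), after median centring (squares), from the Cy5 channel alone (triangles) and under the other alternatives (grey). Each mark is 1 value with no replicate; S100A14 stays at 0.47 or above, while S100A2, S100A4 and S100A7 cross 0.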

How the data were processed

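RNA of SUM149 cells was hybridised to 4 two-colour Agilent arrays, 1 per time point. The authors deposited the intensity of each spot with its local background and flags, and a table of normalized log2 ratios, whose normalization is not given in the sources used here. Median intensities were corrected with normexp (offset 50), control spots were left out, outlier-flagged spots were set aside, and arrays were normalized by loess and Aquantile in limma 3.58.1 (R 4.3.3). Symbols came from the authors' table, joined by row and column. Repeated spots were averaged, and each gene was represented by its probe of highest mean Cy3 signal. A gene was measured at a time when Cy5 and Cy3 of its probe were well above background on that array and the untreated one, and called at a 2-fold change (log2 of 1). Damaged areas were windows (13 rows, 7 columns) in which 10% or more of the spots were defective. The steps were tested on simulated data. In the test of the normalization the planted changes were larger than any change of a member. Recovery of changes of the members' size was not covered by it. Genes named are all members with all their probes, list genes past 2-fold, marker genes, and the 3 genes closest to the member with the largest 12 h change. S100P, S100A12, S100A7A, SPRR3, ANXA2, MYH9, AGER and TLR4 were named outside that rule, after their values were seen. The values of 1 gene on the list of partners are not reported here. Members and lists were chosen with earlier results of these data known. Python 3.11.15 was used for summaries. The number of arrays limits the precision.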

Additional observations from a re-analysis of the deposited data

How the results depend on the processing

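No paired analysis was possible because there is only 1 array for each time. The number of members past 2-fold was 0 in each direction at 3, 6 and 12 h under each of the 10 alternatives, of which 3 (no equalizing between arrays, no filter on dim probes, leaving out damaged areas) leave every member's value as it was and taking the mean over probes moves S100A11 alone. With 1.5-fold in place of 2-fold, 1 member was higher at 3 h, 1 at 6 h and 2 at 12 h. With median centring the median change of the members was -0.15 at 6 h and -0.095 at 12 h, against medians of all genes of -0.084 and -0.16. Without median centring the medians ranged from -0.17 to -0.049 at 3 h, from -0.065 to 0.043 at 6 h and from 0.16 to 0.28 at 12 h. All 10 members were also detected in untreated cells when a signal only had to be positive and significant over background. Of the 183 changes of single members that an alternative could move, 44 moved by more than the technical SD, 20 of them with median centring, 12 with the Cy5 channel alone and 9 with the processed signals of Feature Extraction. No result could be checked against a second culture, and low Cy3 signals limit S100A7 and S100A9.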
